A study of Oryza sativa Japonica Group with 36 samples.

Results

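The genes described here are the rice TIFY genes that carry the names OsJAZ1, OsJAZ3, OsJAZ5, OsJAZ11, OsJAZ13, OsTIFY2a and OsTIFY2b, followed in shoots of a cold-sensitive line and a cold-tolerant line during exposure to cold. The 7 names led to 9 genes with a probe set, out of 17905 genes that a probe set on the array names singly and 18 TIFY genes in the RefSeq gene table. The numbering of OsJAZ genes differs between sources, so that OsJAZ1 stands for OsTIFY3 and for OsTIFY11d, OsJAZ3 for OsTIFY11a and for OsTIFY6a, and OsJAZ11 for OsTIFY11c and for OsTIFY9. OsJAZ5 was taken by its locus, LOC_Os04g32480, which is OsTIFY9, and OsJAZ13 is OsTIFY11e. The gene table gives the name OsJAZ5 to OsTIFY10a, which is described below among the other TIFY genes. All 9 genes are reported, under their TIFY names, and each had 1 probe set. The names came from lists made by comparing cold with control in these same arrays, so the members' changes against the control are given as a description with a standard error and no test. Only differences between the lines were tested, and not for OsTIFY9, which was listed for C418 alone. The study's lists were also sorted by the line in which a gene was called. These tests are therefore not fully free of the choice of genes.

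JAZ (jasmonate ZIM-domain) proteins are repressors of jasmonate signaling. They bind MYC-type transcription factors and, through the adaptor NINJA, recruit co-repressors of the TOPLESS family. When the hormone conjugate jasmonoyl-isoleucine is present, the F-box protein COI1 binds JAZ proteins and they are degraded, which frees the transcription factors. JAZ genes are themselves induced by jasmonate and by wounding, so they form a negative feedback loop on the pathway. OsTIFY2a and OsTIFY2b share the TIFY motif but also carry a GATA zinc finger (the gene table lists them as GATA17 and GATA20 as well), and they are not JAZ repressors. The label of a JAZ repressor therefore applied to 7 of the 9 genes.

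The data were 36 Affymetrix rice arrays of whole shoots at the 3-leaf stage, 3 for each of 12 groups. Every replicate was a separate pot of seedlings, and both lines were grown in the same plates, per the study's methods. Which arrays share a plate is not given. C418 is a japonica line and the recurrent parent. K354 is a BC2F6 introgression line in the C418 background, with the indica variety Bg300 from Sri Lanka as donor, and it is a single line. Each line was sampled in the control at 25 °C and at 4 °C at 5 times (after 2, 6 and 12 h on the first day, then at 24 and 48 h). The control shoots of each line were pooled over different collection times in the day, per the study's methods, so cold and time of day cannot be told apart in any comparison with the control. Array medians lay between 55.5 and 67.9 intensity units, and replicate arrays of a group correlated at 0.979 to 0.996 across probe sets. Of 7 shoot markers with a probe set, 6 (RBCS, CAB2R, LHCP, PSAG, PSAH and RCA) had group means at or above percentile 94.15 of the probe sets, and RBCS1 was dim, at percentile 10.06 or below. Of the root markers, PHT1-11 stayed at 12.0 to 23.5 units, among the dimmest probe sets, and Lsi1 lay between 100.4 and 286.6, with group means at percentiles 62.94 to 76.85.

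On the deposited scale 5 of the 9 genes had an intensity many times higher at 48 h. The other 4 had much smaller changes. The 5 are OsTIFY11a, OsTIFY11c, OsTIFY11d, OsTIFY11e and OsTIFY9, and their log2 changes at 48 h lay between 3.29 and 6.02 in C418 and between 2.08 and 5.55 in K354. The 4 are OsTIFY3, OsTIFY6a, OsTIFY2a and OsTIFY2b, with log2 changes at 48 h between -0.84 and 0.08 in C418 and between -0.83 and -0.02 in K354. The probe sets of the 5 have a locus in the study's gene lists, and none was found there for those of the 4. Those lists rest largely on cold changes in these arrays. The split therefore follows the choice of genes and is not read as a result. No array of any member lay below the 25th percentile of its array. In whole shoots, a change in the number of cells of a type and a change in RNA per cell cannot be told apart. The summed intensity of the 7 shoot markers moved at the same time, from 67142 units in the C418 control to 38232 at 48 h and from 66885 to 53725 in K354. The sum of both root markers went from 201 to 130.7 units in C418 and from 243 to 154.4 in K354. The part of either sum in the results was not tested.

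**Figure D1:**
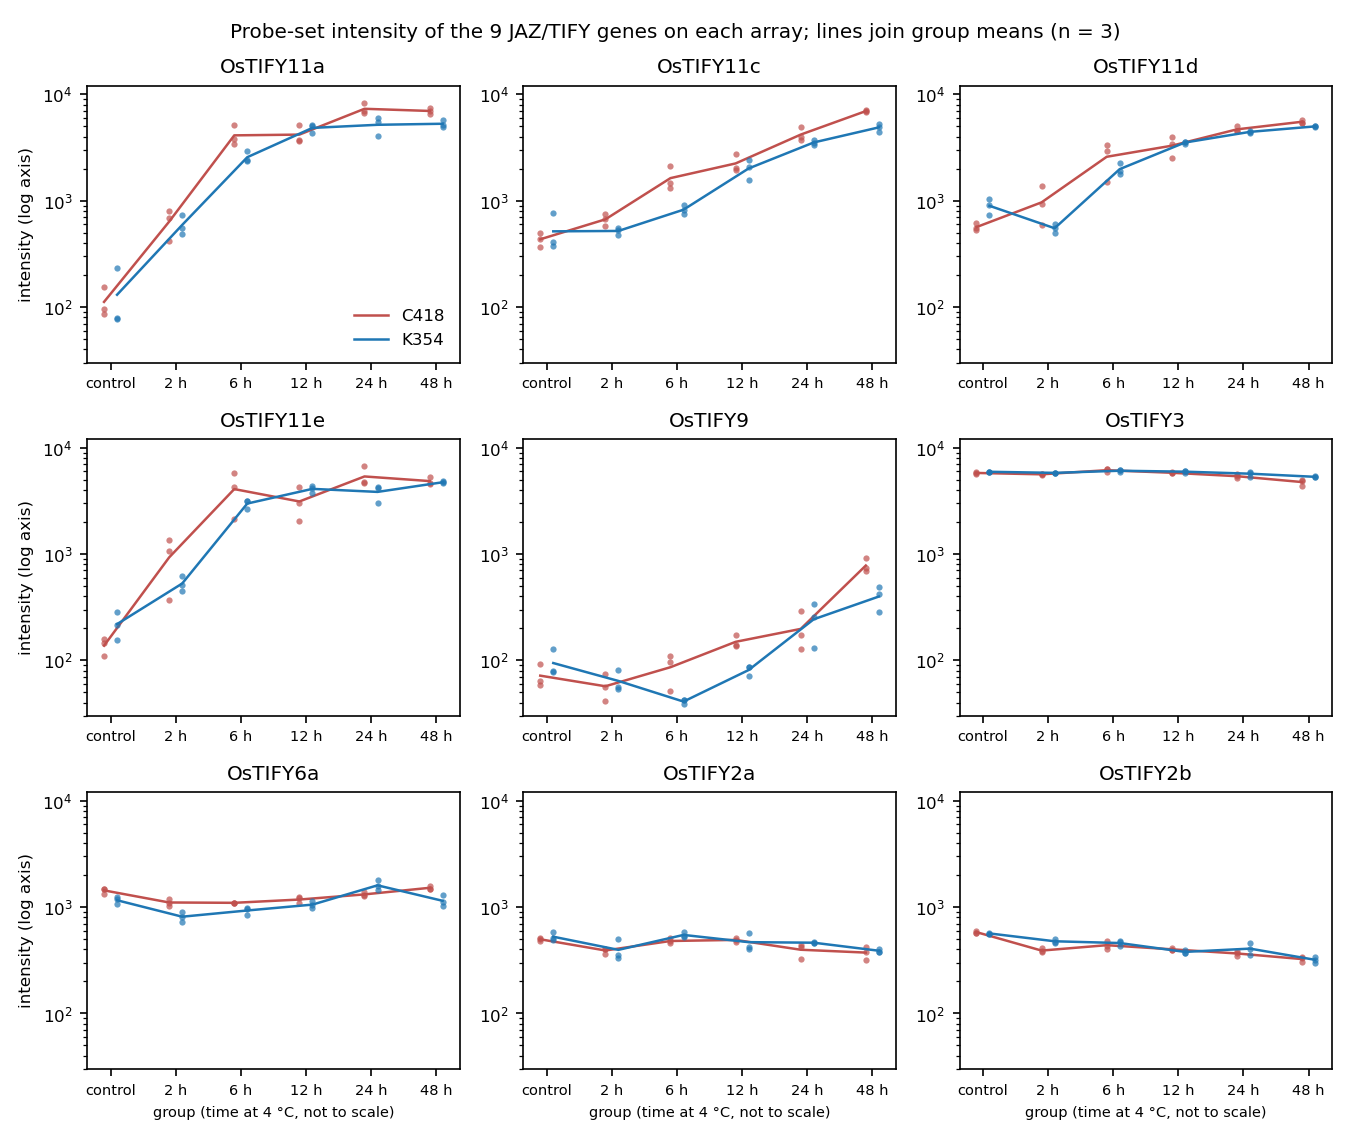
Intensity of the probe set of each of the 9 genes on every array (points) against the group, control and 2 to 48 h at 4 °C, with lines joining the means of the 3 arrays (red, C418; blue, K354; log axis, times not to scale). OsTIFY11a and OsTIFY11e climbed steeply by 6 h in both lines, OsTIFY11c, OsTIFY11d and OsTIFY9 climbed later, and the other 4 genes changed far less.

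OsTIFY11a (OsJAZ3, LOC_Os03g08310), a JAZ repressor, had the largest change of the 9 genes. Its intensity in the C418 control was 94.9, 85.2 and 155.2 on the 3 arrays, and 421, 693 and 795 at 2 h. At 6 h the C418 arrays read 3789, 5168 and 3403, and at 48 h they read 6576, 6910 and 7485. All cold arrays of C418 were above all of its control arrays, and the log2 change was 2.51 (SE 0.30) at 2 h, 5.23 at 6 h, 5.26 at 12 h, 6.08 at 24 h and 6.02 at 48 h. In K354 the control arrays were uneven, with 77.5, 78.5 and 235.5 units, and the 48 h arrays read 4976, 5795 and 5122. The K354 log2 change was 2.37 (SE 0.30) at 2 h, 4.50 at 6 h, 5.42 at 12 h, 5.50 at 24 h and 5.55 at 48 h. Replicate 3 was the high control array, and without it the K354 changes were larger, with 2.90 at 2 h and 6.08 at 48 h. By 6 h OsTIFY11a had reached 87.0% of its 48 h log2 change in C418 and 81.1% in K354. In the order of the 12 group means, the 3 arrays of K354 at 6 h did not overlap with those of the groups next to it, whereas from C418 at 6 h (4120 units) up to K354 at 48 h (5298 units) each group overlapped with the next. C418 at 48 h and 24 h stood apart above these and overlapped with each other.

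OsTIFY11e (OsJAZ13, LOC_Os10g25230), another JAZ repressor, had a similar course. The C418 control arrays read 109, 144 and 158.5, the 2 h arrays 370, 1065 and 1349, and the 6 h arrays 4290, 5814 and 2120. The K354 control arrays read 153.7, 216 and 286.5, the 2 h arrays 448, 515 and 618, and the 6 h arrays 3157, 2656 and 3127. In both lines every cold array was above every control array, but the C418 arrays at 2 h and 6 h were spread widely around their means of 928 ± 503.6 and 4075 ± 1857 (SD, n = 3). The log2 change in C418 was 2.58 (SE 0.34) at 2 h, 4.79 at 6 h and 5.16 at 48 h, and in K354 it was 1.30, 3.81 and 4.48. At 6 h this was 92.9% of the 48 h change in C418 and 85.1% in K354. From 12 h on, the group means lay between 3116 and 5358 units over both lines.

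OsTIFY11c (LOC_Os03g08320), a JAZ repressor that lies next to OsTIFY11a, climbed through all times instead. In C418 its mean was 434 ± 64.9 in the control, 668 ± 80.5 at 2 h, 1632 ± 416 at 6 h, 2243 ± 433 at 12 h, 4189 ± 632 at 24 h and 6969 ± 156 at 48 h (SD, n = 3). In K354 the control arrays read 374, 408 and 764, and the 2 h arrays, at 556, 477 and 526.5, overlapped with them. The K354 means then were 824 ± 84.4 at 6 h, 2012 ± 410 at 12 h, 3533 ± 201 at 24 h and 4897 ± 447 at 48 h. At 6 h C418 had a log2 change of 1.89 (SE 0.20) and K354 one of 0.75, or 47.1% and 22.5% of the 48 h changes of 4.02 and 3.32. Without the high replicate 3 of the K354 control, the K354 changes were 1.07 at 6 h and 3.64 at 48 h.

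OsTIFY11d (LOC_Os10g25290), a JAZ repressor and the near neighbor of OsTIFY11e, had changes of opposite sign in the lines at 2 h. The C418 control arrays read 548, 534 and 613 and the 2 h arrays 596, 935 and 1366, which overlapped. The K354 control arrays read 737, 910 and 1041 and the 2 h arrays 494.5, 559 and 600.1, all below the control. Thus C418 had a log2 change of 0.69 (SE 0.22) at 2 h and K354 one of -0.69. From 6 h all cold arrays of both lines were above their controls. The log2 change was 2.12 at 6 h and 3.29 at 48 h in C418, against 1.15 and 2.50 in K354. At 48 h the arrays lay close together, at 5532 ± 209 in C418 and 5004 ± 98.0 in K354 (SD, n = 3).

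OsTIFY9 (OsJAZ5 by its locus LOC_Os04g32480) was the late gene of the group. In C418 its mean went from 71.7 in the control to 149 ± 19.9 at 12 h and 197 ± 83.3 at 24 h, and the 48 h arrays read 914.5, 686.5 and 733.6. In K354 the control arrays read 77.1, 79.1 and 126.4, and the 6 h arrays, at 42.3, 42.0 and 38.4, were all below them. The K354 arrays at 48 h read 283, 420 and 491, all below those of C418. At 24 h C418 had a log2 change of 1.41 (SE 0.32) and K354 one of 1.30, and at 48 h it was 3.46 and 2.08. The 24 h change was 40.7% of the 48 h change in C418 and 62.4% in K354. From 24 to 48 h the log2 step was 2.05 for C418 and 0.78 for K354.

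Differentially expressed genes (DEGs) were called at more than 5-fold (2.32 on the log2 scale), the fold cut-off of the methods, with a limma adjusted p under 0.05 in place of the SAM p-value used there. By this rule cold-induced members in C418 numbered 2 at 2 h, where 0.327% of the 57258 probe sets were called higher. They numbered 2 at 6 h (0.44% of probe sets), 4 at 12 h (0.746%), 4 at 24 h (1.65%) and 5 at 48 h (2.67%). In K354 they numbered 1 at 2 h (0.0716%), 2 at 6 h (0.327%), 2 at 12 h (0.709%), 4 at 24 h (1.86%) and 4 at 48 h (2.18%). The names were chosen on such calls, so nothing is read from these counts. At 48 h the arrays of 5 members lay wholly above the control in each line (27.6% of probe sets in C418, 25.9% in K354) and those of 3 members wholly below (30.7% and 29.4%). Just inside the threshold were OsTIFY11d in K354 at 24 h, at 5.01-fold, OsTIFY11c in C418 at 12 h, whose log2 change was 2.36, and OsTIFY11a in K354 at 2 h, with 2.37. Just outside were OsTIFY11d in C418 at 6 h, with 2.12, and OsTIFY9 in K354 at 48 h, with 2.08.

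The scale of the arrays bears on these sizes, because the spiked controls moved with time. Relative to the control group, the 27 hybridization control probe sets were higher by 0.81 in C418 and 0.67 in K354 at 48 h on the log2 scale, and the 36 poly-A control probe sets by 1.46 and 1.35. Scaled to the poly-A controls, the 48 h log2 change of OsTIFY11a came to 4.56 in C418 and 4.21 in K354, and that of OsTIFY9 was 2.00 and 0.73. OsTIFY11a, OsTIFY11c, OsTIFY11d and OsTIFY11e kept the sign of all 10 of their changes under quantile normalization, median centring and both kinds of control scaling, and OsTIFY9 kept 9 of 10, the exception being C418 at 6 h. At 48 h the scaling to the poly-A controls moved the other 4 genes further from 0. It gave -2.30 for OsTIFY2b in C418 and -2.17 in K354, and -1.88 and -1.78 for OsTIFY2a. The values were -1.74 and -1.50 for OsTIFY3, and -1.38 and -1.37 for OsTIFY6a. OsTIFY2b had changes below 0 at every time under every scaling run, and OsTIFY2a and OsTIFY3 at 24 and 48 h in both lines. Their signs varied only among the small changes at 2 to 12 h, and that of OsTIFY6a varied in C418 at 48 h and in K354 at 24 h.

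OsTIFY3, the other gene named OsJAZ1, had the smallest range of the 9 genes on the deposited scale. Its C418 arrays read 5830, 5914 and 5598 in the control and 4344, 5013 and 4878 at 48 h, the only time at which all cold arrays of C418 were below the control. Its K354 arrays read 5883, 5940 and 5956 in the control and 5243, 5446 and 5256 at 48 h. Over 12 groups the highest mean was 1.29 times the lowest, and the largest log2 change against the control was -0.29 (SE 0.06) in C418 and -0.16 in K354, both at 48 h.

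OsTIFY6a, the other gene named OsJAZ3, dipped early in both lines. The C418 arrays read 1486, 1336 and 1496 in the control and 1186, 1036 and 1097 at 2 h, and were back at 1596, 1476 and 1491 at 48 h. The K354 arrays read 1061, 1185 and 1239 in the control, 898, 728 and 815 at 2 h, and 1567, 1441 and 1807 at 24 h, where all were above the control. At 48 h the K354 arrays, at 1022, 1313 and 1111, overlapped with the control again. The log2 change for K354 at 24 h was 0.46 (SE 0.10), against -0.13 for C418.

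The GATA-type genes had lower intensities at 48 h on the deposited scale. OsTIFY2b was measured by a probe set of a kind that can also detect related transcripts. Its arrays in C418 read 571, 575 and 601.5 in the control and 307, 338 and 330.3 at 48 h. In K354 they read 564, 560.5 and 575 in the control and 317, 342.5 and 299.9 at 48 h. All cold arrays of OsTIFY2b were below all control arrays of their line at every time, with log2 changes between -0.41 and -0.84 in C418 and between -0.25 and -0.83 in K354. OsTIFY2a had a smaller change, at 48 h of -0.42 (SE 0.13) for C418 and -0.44 for K354, and at 6 h and 12 h its arrays overlapped with the control in both lines.

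The next question was whether the cold-tolerant line differed from its recurrent parent in the level of these genes. The 8 genes other than OsTIFY9 were tested in the control and at 5 times, 48 tests in all, with limma and Benjamini-Hochberg adjustment over all probe sets. Of these, 7 passed an adjusted p of 0.05, with log2 differences no larger in size than -0.96. In the control 1 of 8 passed, against 9.47% of all probe sets. At 2 h 3 of 8 passed (15.2% of probe sets), at 6 h 1 of 8 (18%) and at 48 h 2 of 8 (20.4%). At 12 h (16.2% of probe sets) limma called 0 of 8, with 0 at an unadjusted p under 0.05, and at 24 h (11.4%) it called 0 of 8, with 1 at an unadjusted p under 0.05.

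OsTIFY6a accounted for 3 of these 7 differences. It was lower in K354 in the control, with a log2 difference of -0.31 (SE 0.10, limma adjusted p = 0.0418), at 2 h, with -0.45 (adjusted p = 0.00141), and at 48 h, with -0.41 (adjusted p = 0.0025), and in each case the arrays of the lines did not overlap. The control difference lost its call when replicate 1 or 2 of K354 or replicate 1 or 3 of C418 was left out, with log2 differences between -0.25 and -0.33. At 24 h the order of the lines was the other way round, with 0.28 higher in K354 (adjusted p = 0.0666). The remaining calls each belonged to a different gene. OsTIFY11c was lower in K354 at 6 h by a log2 difference of -0.96 (SE 0.20, limma adjusted p = 0.00089), and OsTIFY11d was lower at 2 h by -0.73 (SE 0.22, adjusted p = 0.0237) although the arrays overlapped. OsTIFY2b was higher in K354 at 2 h by 0.29 (SE 0.08, adjusted p = 0.0104), and OsTIFY3 at 48 h by 0.17 (SE 0.06, adjusted p = 0.044). Only the OsTIFY11c call and that of OsTIFY6a at 2 h held under every alternative run. The OsTIFY11d call was lost in 4 of 6 fits that left out an array (replicates 1 and 2 of K354, 2 and 3 of C418), and the difference was -0.44 (adjusted p = 0.225) without replicate 3 of C418. The OsTIFY2b call was lost without replicate 1 of K354 (0.25, adjusted p = 0.0669) or replicate 3 of C418 (0.26, adjusted p = 0.0521). The OsTIFY3 call was lost without any 1 of the K354 arrays or without replicate 1 of C418, where the difference was 0.10 (adjusted p = 0.274). The 48 h call of OsTIFY6a was lost under both control scalings and with only the compared groups in the fit (adjusted p = 0.0635 to 0.151). OsTIFY11a and OsTIFY11e, the genes with the largest changes, passed at no time, with log2 differences between -0.67 and 0.22 and between -0.63 and 0.65. OsTIFY9, untested, was lower in K354 by log2 differences of -1.004 (SE 0.32) at 6 h and -0.99 at 48 h.

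The cold response itself was compared between the lines as the K354 change minus the C418 change, 40 tests over the 8 genes and 5 times. The 5 comparisons use the same control arrays. At 2 h 1 of 8 genes passed an adjusted p of 0.05, against 1.62% of all probe sets, and at 24 h 1 of 8 (1.56%). At 6 h (0.391% of probe sets), 12 h (1.76%) and 48 h (7.88%) limma called 0 of 8, with 2, 0 and 2 at an unadjusted p under 0.05. The call at 2 h was OsTIFY11d, whose change was smaller in K354 by a log2 difference of -1.39 (SE 0.32, limma adjusted p = 0.0156), from 0.69 in C418 and -0.69 in K354. The call at 24 h was OsTIFY6a, whose change was larger in K354 by 0.59 (SE 0.14, adjusted p = 0.0211). Both calls rested on single arrays. That of OsTIFY11d ended without replicate 3 of C418 at 2 h (-1.09, adjusted p = 0.0773), without replicate 1 of K354 at 2 h (-1.31, adjusted p = 0.0542) or without replicate 3 of the K354 control (-1.27, adjusted p = 0.0605). That of OsTIFY6a ended in 6 of 12 fits that left out an array (replicate 3 of K354 and replicates 1 and 2 of C418 at 24 h, and in the control replicate 1 of K354 and replicates 1 and 3 of C418), with log2 differences between 0.50 and 0.66 over all 12. With only the compared groups in the fit, the adjusted p was 0.0614 for OsTIFY11d at 2 h and 0.0866 for OsTIFY6a, whereas OsTIFY11d at 48 h passed, at -0.80 (adjusted p = 0.0233).

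OsTIFY11a, OsTIFY11c, OsTIFY11d and OsTIFY11e all had the smaller change in K354 at all times but 12 h, when 3 of the 4 did, but only OsTIFY11d at 2 h passed the test. For OsTIFY11a the sign rested on single arrays, since without replicate 3 of the K354 control the difference was 0.39 at 2 h and 0.07 at 48 h, and at 2 h it was 0.05 without replicate 3 of C418 and 0.03 without replicate 2 of the C418 control. In the control that these comparisons share, OsTIFY11d and OsTIFY11e were each 0.65 higher in K354 on the log2 scale (adjusted p = 0.0681 and 0.323). Left-out arrays could also bring a call. Without the low replicate 1 of C418 at 2 h the difference of OsTIFY11e went from -1.28 (SE 0.48, adjusted p = 0.298) to -1.84 (adjusted p = 0.00928). Without the low replicate 3 of C418 at 6 h that of OsTIFY11d went from -0.96 (adjusted p = 0.333) to -1.32 (adjusted p = 0.0151) and that of OsTIFY11c from -1.14 (adjusted p = 0.078) to -1.28 (adjusted p = 0.0385). The OsTIFY11c difference also passed without replicate 1 of the K354 control (-1.34, adjusted p = 0.034). OsTIFY9, untested, had differences of -1.39 (SE 0.45) at 6 h, -1.26 at 12 h and -1.38 at 48 h, and of -0.11 at 24 h.

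**Figure D2:**
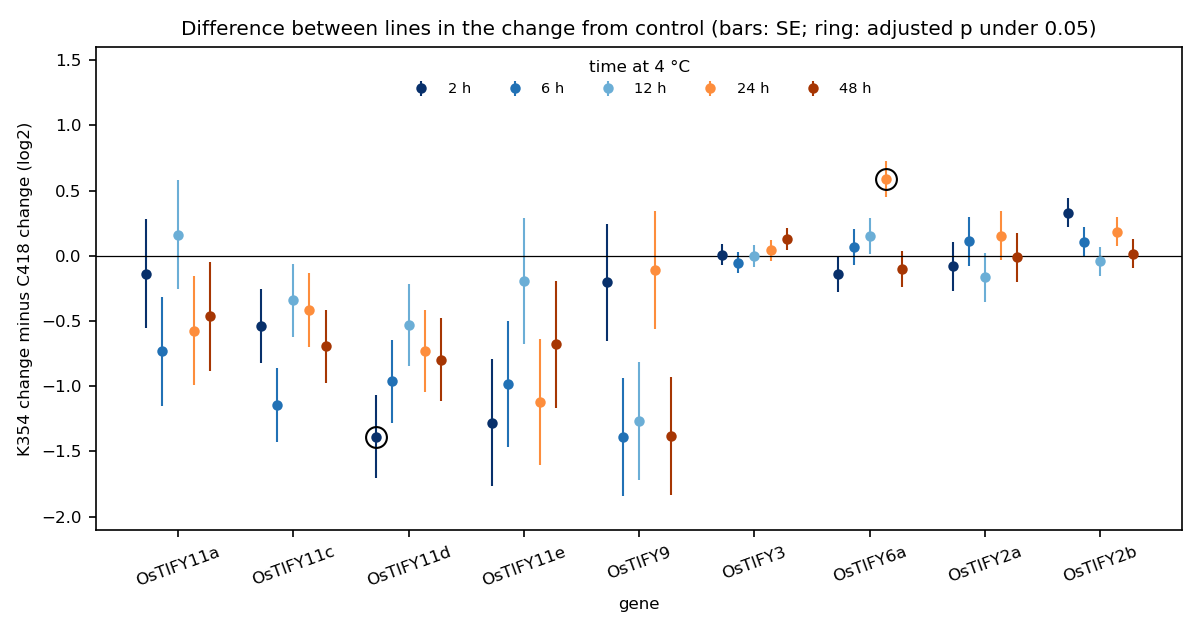
K354 change minus C418 change against the control (log2, y axis) for each of the 9 genes (x axis) at the 5 cold times, with bars of 1 SE and rings for the tested differences with an adjusted p under 0.05. Points of the OsTIFY11 genes lie mostly below 0, and the rings mark OsTIFY11d at 2 h (-1.39) and OsTIFY6a at 24 h (0.59).

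Replicate arrays of a group tended to stand high or low together in the OsTIFY11 genes. After each array was expressed as its log2 deviation from its group mean, the 6 pairs among OsTIFY11a, OsTIFY11c, OsTIFY11d and OsTIFY11e had Pearson correlations of 0.57 to 0.92 over the 36 arrays, against -0.23 to 0.31 for the 6 pairs among OsTIFY2a, OsTIFY2b, OsTIFY3 and OsTIFY6a. The latter 4 genes varied little within groups, with a median SD of 2.5 to 7.0% of the mean, so low correlations among them say little. The points share pots and arrays, so the values are a description. In C418 at 2 h replicate 1 was the lowest array for all 4 genes, in C418 at 6 h replicate 3 was, and in the K354 control replicate 3 was the highest. Replicate 3 was the highest of its group in 8 of 12 groups for OsTIFY11a, 5 for OsTIFY11c, 8 for OsTIFY11d and 9 for OsTIFY11e. OsTIFY9 correlated with these genes at 0.03 to 0.50. The pattern was not particular to the OsTIFY11 genes, since OsTIFY10a correlated with the same 4 at 0.54 to 0.88.

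**Figure D3:**
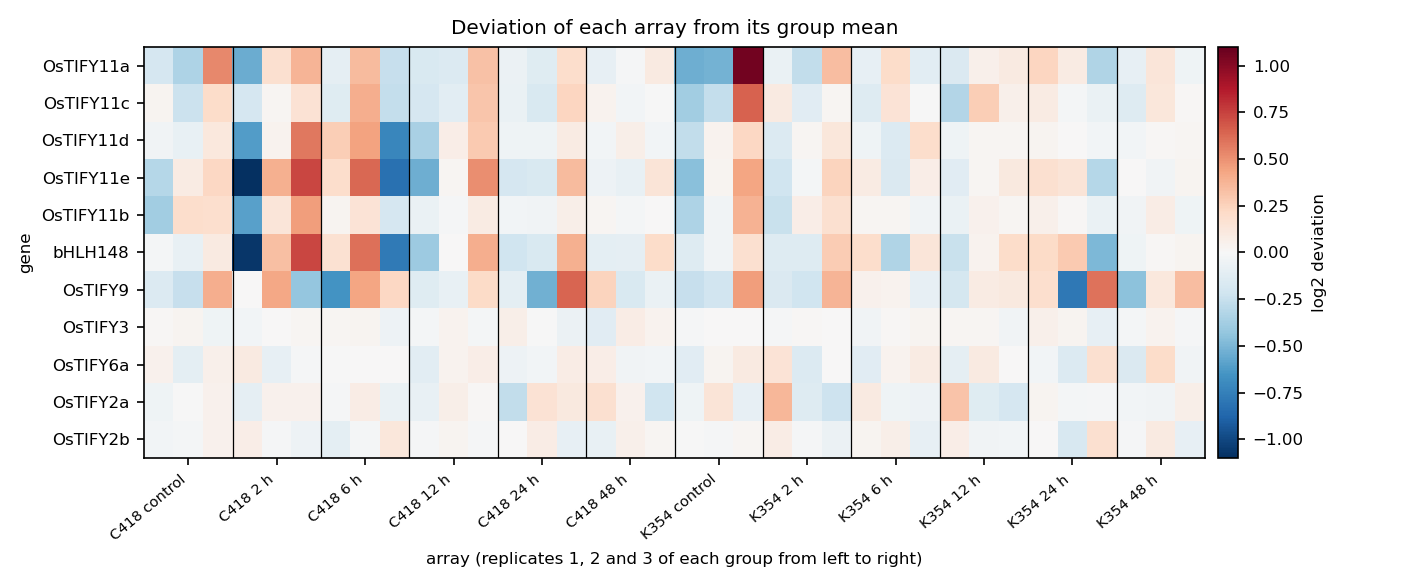
Log2 deviation of each array from the mean of its group (color), with genes in rows and the 36 arrays in columns, replicates 1 to 3 from left to right within each of the 12 groups. In OsTIFY11a, OsTIFY11c, OsTIFY11d and OsTIFY11e, replicate 1 is lowest in C418 at 2 h and replicate 3 is lowest in C418 at 6 h. In the K354 control replicate 3 is highest in these genes. bHLH148 has the same extreme arrays in C418 at 2 h and in the K354 control. OsTIFY3, OsTIFY6a, OsTIFY2a and OsTIFY2b are pale throughout.

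OsTIFY11b, a JAZ repressor outside the listed names, had a course like that of the OsTIFY11 members. In the RefSeq gene order it directly follows OsTIFY11a and OsTIFY11c on chromosome 3, with no gene between them. OsTIFY11d and OsTIFY11e lie on chromosome 10 with 3 genes between them. OsTIFY11b intensity was 1029 ± 217 in the C418 control and 8709 ± 1007 at 6 h, and 1589 ± 406 and 7553 ± 171 in K354 (SD, n = 3). Its log2 change at 48 h was 3.30 (SE 0.18, limma adjusted p = 3.12e-15) in C418 and 2.56 (adjusted p = 1.1e-12) in K354, and its other probe set gave 4.93 and 4.10. The brighter probe set is of the kind that can also detect related transcripts. Across the 12 group means of log2 intensity, OsTIFY11a, OsTIFY11b and OsTIFY11e correlated at 0.989 to 0.992 with each other, and OsTIFY11c correlated most with OsTIFY10a, at 0.978.

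Of the 8 other TIFY genes with a probe set, 2 were called higher at 48 h in C418 and 1 in K354, at the same 5-fold threshold, and none lower (1.01% and 0.568% of probe sets). The second in C418 was OsTIFY10a, a JAZ repressor, with a log2 change of 2.34 (SE 0.18, limma adjusted p = 3.24e-12), and 1.79 in K354 (adjusted p = 1.14e-09). Its C418 change was just above the threshold and fell below it without replicate 3 at 48 h (2.29) or replicate 3 of the control (2.31). The OsTIFY10a probe set is of the kind that can also detect related transcripts. Without a minimum fold, 6 of 8 were higher in C418 and 4 of 8 in K354, against 25.1% and 23.5% of all probe sets. The 8 genes had a median log2 change of 0.56 in C418 and 0.34 in K354 at that time, beside -0.02 and -0.03 over all probe sets. Several of these genes are in the study's own lists of cold-responsive genes, so the counts are no independent evidence.

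**Figure D4:**
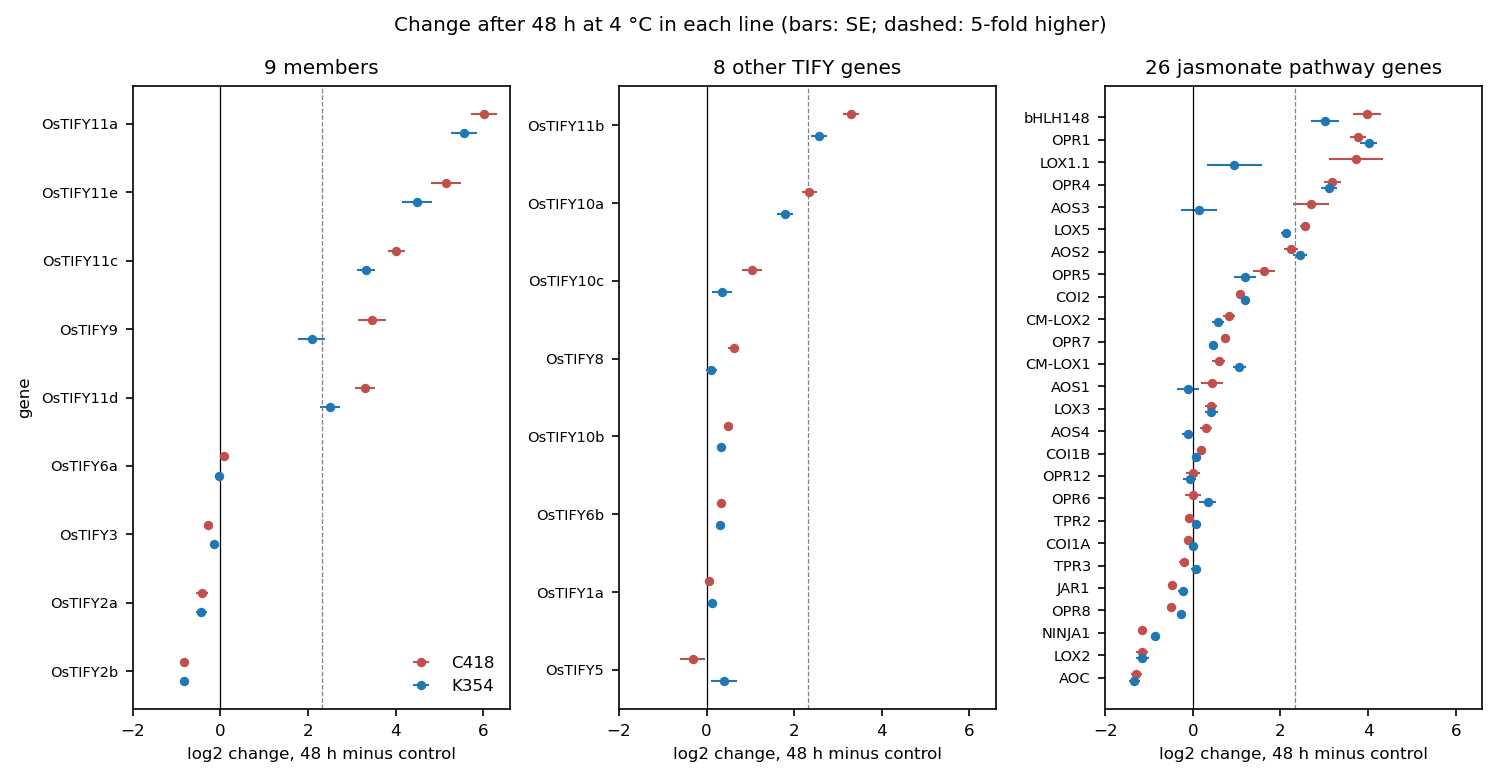
Log2 change from the control to 48 h at 4 °C (x axis) in C418 (red) and K354 (blue). Bars are 1 SE (n = 3 arrays a group). Panels show the 9 genes, the 8 other TIFY genes and 26 genes matched by name to jasmonate synthesis and signaling. Each panel is sorted by the C418 change, with a dashed line at 5-fold. OsTIFY11a stands at 6.02 and 5.55, OsTIFY11b leads the other TIFY genes at 3.30 and 2.56, and bHLH148 leads the C418 changes of the pathway genes at 3.98, with 3.01 in K354.

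Genes named for the enzyme families of jasmonate synthesis moved in both directions on the deposited scale, and the part of each gene in that pathway was not tested. Of 18 with a probe set, 5 passed the 5-fold threshold upwards at 48 h in C418 (2.67% of all probe sets) and 3 in K354 (2.18%), and none passed it downwards (1.01% and 0.568%). OPR1 and OPR4, of the family of 12-oxophytodienoate reductases, changed by 3.76 (SE 0.19, limma adjusted p = 3.61e-16) and 3.19 (adjusted p = 1.1e-14) in C418, and by 4.01 and 3.10 in K354. AOS2, an allene oxide synthase, changed by 2.24 (SE 0.16, adjusted p = 1.17e-12) in C418 and 2.44 (adjusted p = 2.67e-13) in K354, on either side of the threshold. AOC, the allene oxide cyclase, fell by 1.29 on the log2 scale (adjusted p = 4.28e-10) in C418 and by 1.34 in K354. Without a minimum fold, 11 of 18 were higher and 3 lower in C418, and 9 and 3 in K354. Of all probe sets, 25.1% were called higher and 28.3% lower in C418, and 23.5% and 27.1% in K354. LOX5, a lipoxygenase, changed by 2.56 (adjusted p = 1.35e-17) in C418 and 2.13 in K354. CM-LOX2, another lipoxygenase, gave 0.82 in C418 on its brightest probe set but 4.17 and 3.83 on the other probe sets, so its change depends on the probe set. JAR1, which conjugates jasmonate to isoleucine, fell by 0.47 (SE 0.10, adjusted p = 0.000217) in C418 and had -0.23 (adjusted p = 0.0563) in K354.

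LOX1.1, a lipoxygenase, and AOS3, an allene oxide synthase, also passed in C418, with fitted log2 values of 3.72 and 2.70, but their signals were dim. LOX1.1 read 6.84, 7.11 and 7.50 in the C418 control, all below the 25th percentile, and 143.8, 79.5 and 72.8 at 48 h. With dim values raised to that percentile its change was 1.75 (adjusted p = 0.000303), no longer past 5-fold. AOS3 read 541, 123 and 137 at 48 h in C418, and without replicate 1 its change was 2.02 and no longer past 5-fold. In K354 every array of AOS3 lay below the 25th percentile in all 6 groups, at 8.17 to 19.7 units.

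Of the 7 genes of perception and signaling, bHLH148 alone passed the 5-fold threshold. It encodes a bHLH transcription factor that is known to bind a JAZ protein in rice. Its C418 arrays read 258, 247 and 280.1 in the control and 599.6, 1586 and 2092 at 2 h, whereas its K354 arrays read 422, 451 and 525.5 in the control and 315, 315 and 421 at 2 h. Its log2 change was 2.27 at 2 h (SE 0.32, limma adjusted p = 4.6e-06) in C418 and -0.42 (adjusted p = 0.359) in K354, and at 48 h it was 3.98 and 3.01. Its deviations within groups correlated at 0.54 to 0.94 with those of the 4 OsTIFY11 genes. COI1A and COI1B, the receptor F-box genes, did not pass the test at 48 h, with -0.12 (adjusted p = 0.176) and 0.18 (adjusted p = 0.0559) in C418 and -0.01 and 0.06 in K354. COI2, also a receptor F-box gene, changed by 1.08 (adjusted p = 2.35e-12) in C418 and 1.18 in K354 on the deposited scale. The poly-A controls rose by more at 48 h, by 1.46 in C418 and 1.35 in K354, so the sign of the COI2 change depends on the scale. NINJA1, the adaptor between JAZ proteins and co-repressors, fell by 1.15 (SE 0.08, adjusted p = 1.65e-12) in C418 and by 0.87 (adjusted p = 8.58e-10) in K354. At 24 h its log2 change was -0.62 in C418 and -0.51 in K354, and its other probe set gave -0.34 and -0.27. Both probe sets are of a kind that can also detect related transcripts.

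Outside the family, the named genes whose 12 group means tracked each member most closely were taken from 2512 probe sets above the median intensity. OsTIFY11a and OsTIFY11e had the same nearest gene, LTR1 (also OsMyb4), a MYB transcription factor, at Pearson correlations of 0.989 and 0.989. IAA23 and GDH2 followed for OsTIFY11a (0.988 and 0.982), and ACA7 and OsWRKY71 for OsTIFY11e (0.977 and 0.976). OsTIFY11c was nearest to CDKG-1 (0.991), CPK5 (0.989) and KCO2 (0.988), and OsTIFY11d to UGD3 (0.986), NAC068 (0.980) and CDPK1 (0.977). OsTIFY9 was nearest to ABCG37 (0.969) and to both probe sets of Ehd3 (0.968 and 0.965). For the other 4 genes the closest was FTR-B for OsTIFY3 (0.954), AD709 for OsTIFY6a (0.919), ADPRT-3 for OsTIFY2a (0.916) and FNR for OsTIFY2b (0.975). These likenesses were taken over 12 group means that share controls and time points.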

How the data were processed

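RNA of 36 rice shoot samples was hybridised to Affymetrix rice arrays. The deposited values are linear intensities of 57381 probe sets. The labels name MAS5 as the tool, and the study's methods name GCOS software and dChip invariant-set normalization by the authors. Versions of MAS5 and dChip are not given in the sources used here. The 123 array controls were left out of the tests, which leaves 57258 probe sets. Genes were named through the platform annotation and RefSeq gene table (assembly ASM3414082v1), in which 22436 probe sets had 1 gene, 95 several and 34727 none. For each gene the brightest probe set was used. The members and gene lists were chosen with earlier results of these data known. MYC2 and several other pathway names had no match and are not used here.

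Intensities were taken to log2 and fitted with limma 3.58.1 in R 4.3.3, in 1 model of the 12 groups, without a block, with Benjamini-Hochberg adjustment over all probe sets. Genes were called at an adjusted p under 0.05 and more than 5-fold, and line differences at an adjusted p under 0.05. The fit was checked on simulated intensities. The number of arrays limits the precision. Replicate numbers were not taken to pair samples. Alternatives were normalization, scaling to control probe sets, a floor, a filter on dim probe sets, fewer groups in the fit, a replicate block, thresholds, an unpaired t-test and leaving out each array. Named were all members, other TIFY genes called in any cold comparison, up to 4 called pathway genes per role, COI1A, COI1B and NINJA1, and the 3 named genes most like each member. LOX5, AOS2, AOC, JAR1, COI2 and CM-LOX2 were named after their values were seen. Outlying arrays were not tested in groups of 3.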

Additional observations from a re-analysis of the deposited data

Results flagged for a closer look

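For 6 genes the change from the control differed between the lines by the test of the difference itself, the K354 change minus the C418 change in limma with adjustment over all probe sets. OsTIFY11d at 2 h had a difference of -1.39 on the log2 scale (adjusted p = 0.0156) and OsTIFY6a at 24 h one of 0.59 (adjusted p = 0.0211), and both are described above with the arrays on which they rest. At 2 h bHLH148, the JAZ-binding transcription factor, had -2.69 (SE 0.46, adjusted p = 0.00072), with differences between -3.22 and -2.32 over the 12 fits that left out an array. AOS2 had -0.87 at 2 h (adjusted p = 0.0472), and the call was lost under quantile normalization (adjusted p = 0.0771) and in 9 of 12 fits without an array, the exceptions being replicate 3 of K354 and replicate 1 of C418 at 2 h and replicate 1 of the K354 control. These calls at 2 h were 2 of 26 pathway genes, beside 1.62% of all probe sets. At 48 h AOS3 and LOX1.1 were 2 of 26, a share near the 7.88% of all probe sets. AOS3 had a fitted difference of -2.57 (adjusted p = 0.0047), but all K354 arrays were below the 25th percentile, so its K354 change is not measured. With dim values raised to that percentile the difference was -2.68 (adjusted p = 0.0014). LOX1.1 had -2.77 at 48 h (adjusted p = 0.0487), with the control arrays of C418 below the 25th percentile. Its call was lost with dim values raised to that percentile (-1.55, adjusted p = 0.0711) and with the replicate block (adjusted p = 0.0579). Each of these was lower in K354 except OsTIFY6a.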

How the results depend on the processing

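The number of members whose cold response differed between lines, 2 of 40 tests, was 1 when scaled to the poly-A controls and 1 with only the compared groups in the fit (OsTIFY11d at 48 h in place of both), and 1 to 4 over the fits that left out an array (4 without replicate 3 of C418 at 6 h). The number that differed in the control, 1 of 8, was 2 under quantile normalization, 2 with the filter on dim probe sets, 0 under both control scalings and 0 to 1 without an array. Other TIFY genes called at 48 h in C418, 2, were 1 under median centring, 1 when scaled to the hybridization controls, 0 when scaled to the poly-A controls, 6 with no minimum fold and 1 to 2 without an array. In K354 the count of 1 was 0 under both control scalings, 2 at more than 2-fold and 4 with no minimum fold. Jasmonate pathway genes called at 48 h, 6 in C418 and 4 in K354, were 12 and 10 at more than 2-fold and 18 and 15 with no minimum fold. Both counts were lower when scaled to the poly-A controls. Over all changes and line differences of the called other TIFY and pathway genes, that scaling lost 23 calls, and 112 results kept their status. Scaling to the hybridization controls lost 13 calls, and 122 results kept their status. An unpaired t-test gave 2 and 1 other TIFY genes and 6 and 4 pathway genes, unadjusted and after Benjamini-Hochberg. Scaling to the poly-A controls turned the log2 change of OsTIFY3 in C418 at 6 h to -0.33 and of OsTIFY6a in K354 at 24 h to -0.34. Changes near 0 turned too, as for OsTIFY6a in C418 at 48 h (0.08 to -1.38), OsTIFY3 at 12 h (to -0.63 in C418 and -0.54 in K354) and OsTIFY2a in K354 at 6 h (0.06 to -0.16). Over all probe sets and all pairs of groups, same-numbered arrays did not deviate together on average (mean correlation 0.00287, from -0.50 to 0.34). The numbers were therefore not taken to pair samples, although replicate 3 was the highest array in 5 to 9 of 12 groups for the OsTIFY11 members. Pairing of the lines within a time was not checked alone. With the replicate block the counts were 2, 1, 2 and 1 for these comparisons and 6 and 4 for the pathway genes, and the difference between lines in the 48 h response of LOX1.1 had an adjusted p of 0.0579. The cause of the differences between settings was not tested. Every member had 1 probe set, so the choice of probe set could not be varied.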
